A study of Mus musculus with 10 samples.

Results

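The genes described here are 38 genes of sugar use in the mouse hippocampus: glucose and lactate carriers, the enzymes of glycolysis, the genes that carry pyruvate into mitochondria and oxidise it, and the enzymes that build and break down glycogen. They were taken by gene symbol, and all 38 were found among the 20156 genes of the count table. All 38 also passed the filter on low counts, which kept 16180 genes for testing. RNA came from whole hippocampus of 5 wild type mice (WT 1 to 5) and 5 TfamAKO mice (TfamAKO 1 to 5), all 6 months old. The title of the series places the study in the mitochondria of astrocytes, and Tfam encodes the factor that packages and transcribes mitochondrial DNA. The driver of the deletion, the deleted part of Tfam, the strain and the sex of the mice are not given in the labels used here, and each mouse was sequenced as 1 library of polyadenylated RNA.

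Glycolysis splits glucose into pyruvate in the cytosol. Pyruvate then becomes lactate, which can leave the cell, or enters mitochondria for oxidation, and a cell with weak mitochondrial respiration leans on the lactate branch for its ATP. In brain, astrocytes hold nearly all of the glycogen and are known for a high glycolytic rate and for lactate release, while neurons take up lactate and glucose through carriers of their own. Several steps have isoforms that differ between these cell types, such as aldolase C in astrocytes and the glucose carrier GLUT3 in neurons.

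The 10 libraries held between 16584245 and 28675367 estimated counts, and libraries of 1 group correlated at 0.970 to 0.991. Levels are given as CPM, the estimated counts of a gene scaled to the size of its library. Tfam, the check of the labels, was 29.7 ± 5.17 CPM in WT and 22.5 ± 1.63 CPM in TfamAKO (SD, n = 5 each; log2 fold change -0.40 ± 0.12, edgeR adjusted p = 0.0204), with WT 3 at 20.6 CPM inside the TfamAKO range. That call was lost without WT 2 (-0.34), without WT 4 (-0.37) or without TfamAKO 3 (-0.35), without TfamAKO 4 and 5 together (-0.43) and with limma on the deposited normalized values (-0.28, adjusted p = 0.117). Among markers of hippocampal cells, 6 of 10 neuron genes were called lower and 0 higher, 4 of 10 astrocyte genes were called higher and 4 lower, and 5 of 6 genes each of microglia and endothelium were called higher. No marker was at 0 in all libraries. Choroid plexus genes summed to 5567, 4133 and 2751 CPM in WT 3, 4 and 5 and to between 33.0 and 159 CPM in the other 7 libraries, and the Y-linked Kdm5d was present in TfamAKO 4 (22.7 CPM) and TfamAKO 5 (22.4 CPM) and below 1 CPM in the other libraries. In bulk tissue, fewer cells of a type and less RNA per cell cannot be told apart.

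Of the 38 genes, 9 rose and 11 fell in TfamAKO, against 20.8% higher and 16.6% lower among all genes tested (edgeR quasi-likelihood test, adjusted p under 0.05). The median log2 fold change was -0.11 for the 38 genes and -0.02 for all genes tested, and 24 of the 38 values were below 0. Libraries of the 2 groups did not overlap for 7 higher and 9 lower genes, where 14.5% and 9.43% of all genes tested were separated in these directions. The genes that rose with a log2 fold change of at least 0.5 numbered 6: Hk2, Pfkfb3, Slc2a1, Slc16a1, Pdk4 and Gys1. The genes that fell as far were Aldoc and Pygm. From aldolase to pyruvate kinase, 7 of 9 genes fell and all 9 fold changes were negative. The 8 genes with a log2 fold change of at least 0.5 in size were also the only ones of the 20 called that kept call and direction in all 18 alternative fits. Without WT 3, 4 and 5, the libraries with choroid plexus RNA, 6 genes were called higher and 2 lower: these were the same 8, and the 12 smaller changes kept their sign but lost their call. Without TfamAKO 4 and 5, which carry Y-linked RNA, 10 were called higher and 6 lower.

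**Figure D1:**
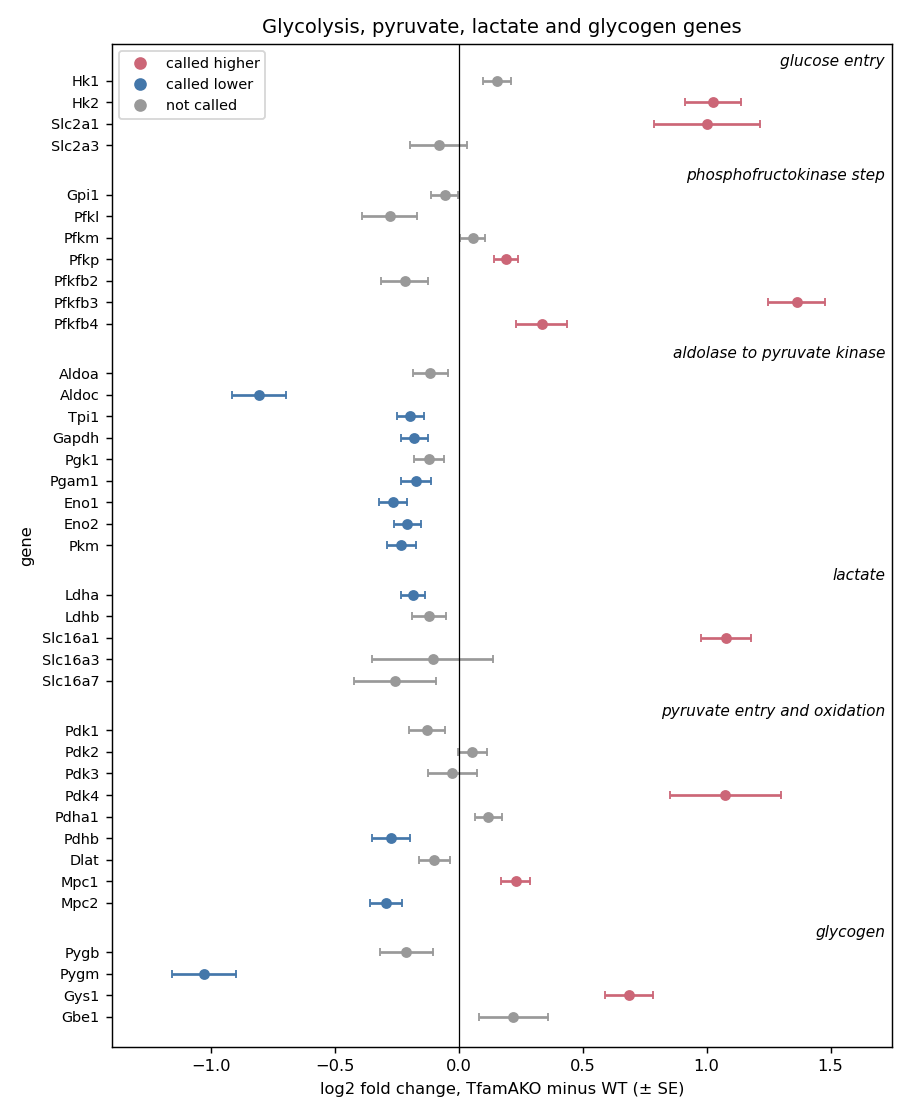
Log2 fold change of TfamAKO over WT for each of the 38 genes, in the order of the pathway, with bars of 1 standard error and colours for the edgeR call. The 9 genes from aldolase to pyruvate kinase lie to the left of 0, and Pfkfb3 (1.36) and Pygm (-1.03) mark the 2 ends of the range.

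Promoter sequence is shown for those of the 8 genes with large changes whose upstream window holds ACGTG, the core of the element bound by hypoxia-inducible factors, because glycolytic genes are textbook targets of these factors. The 250 bases before each RefSeq start site (GRCm38.p6) were searched on both strands. Where a window held more than 1 match, the stretch around the match nearest the start site is given. The stretches are written 5′ to 3′ on the gene's strand, and capitals mark ACGTG, its reverse complement CACGT, or the overlap of both, CACGTG. They lie at chr6:82774472-82774536 on the minus strand for Hk2, at chr2:11502108-11502172 and chr2:11553955-11554019 on the minus strand for 2 start sites of Pfkfb3, at chr4:119108679-119108743 on the plus strand for Slc2a1, at chr3:104638435-104638499 on the plus strand for Slc16a1 and at chr19:6384317-6384381 on the plus strand for Pygm.
Hk2: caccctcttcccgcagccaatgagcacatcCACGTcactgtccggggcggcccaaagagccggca
Pfkfb3: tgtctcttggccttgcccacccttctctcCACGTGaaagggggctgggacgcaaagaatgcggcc
Pfkfb3, other start site: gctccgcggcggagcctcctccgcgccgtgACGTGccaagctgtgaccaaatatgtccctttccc
Slc2a1: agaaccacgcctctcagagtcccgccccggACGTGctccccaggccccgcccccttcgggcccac
Slc16a1: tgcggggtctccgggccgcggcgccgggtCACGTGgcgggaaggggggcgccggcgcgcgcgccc
Pygm: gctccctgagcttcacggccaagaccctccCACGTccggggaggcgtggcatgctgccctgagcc
The letters occurred upstream of 17 of the 36 members with a window (47.2%; Slc16a7 and Slc2a3 had none), of 2873 of 11897 tested genes with a window (24.1%) and in 5444 of all 32851 windows (16.6%). By call, they occurred in 4 of 9 genes called higher, 5 of 11 called lower and 8 of 16 not called. Gys1, Pdk4 and Aldoc had no match in their windows. A match is a description of the sequence and not a measured binding site.

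Glucose enters brain cells through GLUT1 (Slc2a1, blood vessels and glia) and GLUT3 (Slc2a3, neurons) and is trapped by hexokinases. Of these 4 genes, Slc2a1 and Hk2 rose and 0 fell. Slc2a1 was at 102, 152, 164, 152 and 143 CPM across WT 1 to 5, against 139, 334, 307, 289.6 and 355 CPM across TfamAKO 1 to 5 (log2 fold change 1.0002 ± 0.21, edgeR adjusted p = 0.00349). TfamAKO 1 sat within the WT range, and the other 4 TfamAKO libraries were above every WT library. Endothelial markers were also higher in TfamAKO, 5 of 6 of them called: their sum was 190.3 to 247 CPM in WT, 289 CPM in TfamAKO 1, 300.7 CPM in TfamAKO 5 and up to 463 CPM in the rest. Slc2a1 was lowest in TfamAKO 1 and highest in TfamAKO 5 among the TfamAKO libraries, and the part of vessels in its rise was not tested. Slc2a3 was at 138, 101, 127, 130.3 and 143 CPM across WT, against 108, 123, 134, 96.9 and 142 CPM across TfamAKO, with the groups interleaved (-0.08 ± 0.11, edgeR adjusted p = 0.6).

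Hk2, the inducible hexokinase, was at 8.11, 7.25, 7.64, 6.54 and 6.64 CPM across WT, against 15.3, 12.99, 16.6, 12.7 and 15.99 CPM across TfamAKO. Every TfamAKO library was above every WT library (2.04-fold, log2 fold change 1.03 ± 0.11, edgeR adjusted p = 4.02e-05). Per kilobase of transcript Hk2 stood at 1.31 CPM in WT, against 113 CPM per kilobase for Hk1, the constitutive brain hexokinase. Hk1 was at 512, 447, 500.0, 479.9 and 488 CPM across WT, against 535, 571, 558, 541 and 493 CPM across TfamAKO. All TfamAKO libraries but TfamAKO 5 were above every WT library, and Hk1 missed the threshold (0.15 ± 0.06, edgeR adjusted p = 0.0532); it passed without WT 1 (0.17) or without TfamAKO 5 (0.18). Summed over the 4 genes, the level was 763 ± 34.1 CPM in WT and 960.2 ± 98.4 CPM in TfamAKO (SD, n = 5 each), and Slc2a1 made most of that difference. Microglia also hold Hk2, and their summed markers were 269 to 321 CPM in WT and 457 to 538 CPM in TfamAKO; their part in the rise of Hk2 was not tested.

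At the committed step, phosphofructokinase turns fructose 6-phosphate into the bisphosphate, and the Pfkfb enzymes set its pace by making or removing the activator fructose 2,6-bisphosphate. Of the 7 genes of this step, including Gpi1 just before it, Pfkfb3, Pfkfb4 and Pfkp rose and 0 fell. Pfkfb3, the isoform with the strongest kinase activity and the one known from astrocytes, was at 30.4, 37.2, 36.9, 37.3 and 35.96 CPM across WT, against 82.8, 91.6, 90.2, 73.99 and 119 CPM across TfamAKO. This was the largest rise of the 38 genes (2.57-fold, log2 fold change 1.36 ± 0.11, edgeR adjusted p = 6.26e-06), with every TfamAKO library above every WT library and TfamAKO 5 highest. Pfkfb4 rose from 11.7 ± 0.915 CPM to 14.7 ± 1.77 CPM (SD, n = 5 each; 0.33 ± 0.10, edgeR adjusted p = 0.0238), a call lost without WT 4 (0.29). Pfkfb2 was at 30.1 ± 3.23 CPM and 25.8 ± 2.795 CPM and was not called (-0.22, edgeR adjusted p = 0.0859), except without TfamAKO 5 (-0.29).

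Of the 3 phosphofructokinase subunits Pfkp rose, and Pfkm and Pfkl were not called. Pfkp, the platelet-type subunit that astrocytes also make, was at 265, 251, 253, 245 and 252 CPM across WT, against 290.0, 294, 284, 271 and 306 CPM across TfamAKO, a small rise with no overlap (0.19 ± 0.05, edgeR adjusted p = 0.00982). Pfkm, the muscle-type subunit, was at 418, 429, 422, 443 and 433 CPM across WT, against 473, 452, 444, 414 and 446 CPM across TfamAKO (0.06 ± 0.05, edgeR adjusted p = 0.398). Pfkl, the liver-type subunit, was at 334, 287, 320.1, 317 and 319 CPM across WT, against 337, 229.5, 249, 277 and 207 CPM across TfamAKO. Its TfamAKO libraries ranged widely, with TfamAKO 1 above all WT libraries and the other 4 below all of them. Pfkl was not called (-0.28 ± 0.11, edgeR adjusted p = 0.0665) but was called lower without TfamAKO 1 (-0.39) and in 4 further alternatives, with adjusted p-values of 0.0326 to 0.0487. Gpi1, the isomerase before this step, had a log2 fold change of -0.06 ± 0.05 (edgeR adjusted p = 0.412).

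**Figure D2:**
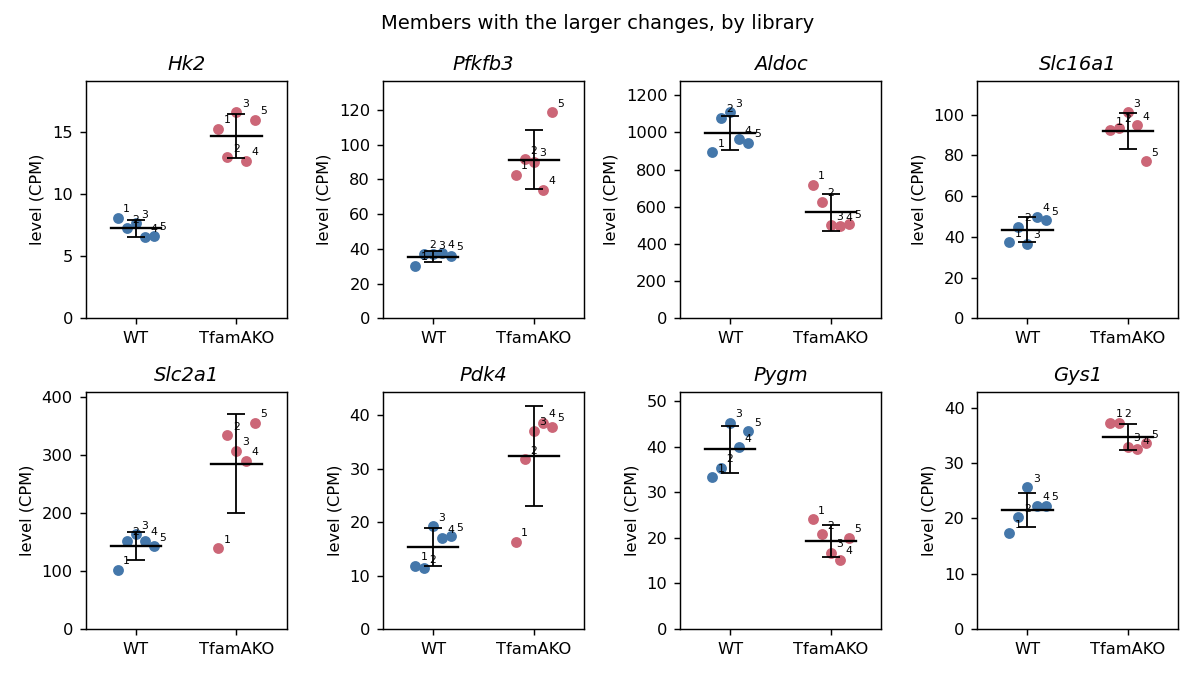
CPM of the 8 genes with a called log2 fold change of at least 0.5, 1 panel a gene, with a point for each library, a bar at the group mean and an error bar of 1 SD. The groups are apart for Hk2, Pfkfb3, Slc16a1, Gys1, Aldoc and Pygm, while for Slc2a1 and Pdk4 TfamAKO 1 lies among the WT libraries.

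From aldolase to pyruvate kinase, the sugar bisphosphate is split and its carbon taken to pyruvate with the gain of ATP and NADH. Of the 9 genes Aldoc, Tpi1, Gapdh, Pgam1, Eno1, Eno2 and Pkm fell, 0 rose, and Aldoa (-0.12) and Pgk1 (-0.12) were not called. The group's median log2 fold change was -0.20. Their summed level was 9585, 8956, 9208, 9479 and 9491 CPM in WT 1 to 5 and 8523, 8157, 8037, 7708 and 7179 CPM in TfamAKO 1 to 5. Every TfamAKO library was below every WT library, and the mean was 15.2% lower, at 7921 ± 507 against 9344 ± 259 CPM (SD, n = 5 each). This sum gives more weight to abundant genes and carries no test.

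Aldoc, the aldolase of astrocytes, fell furthest. It was at 894, 1079.7, 1110.1, 965 and 944 CPM across WT, against 718, 626, 502, 495 and 509.6 CPM across TfamAKO (0.57-fold, log2 fold change -0.81 ± 0.11, edgeR adjusted p = 0.000188). Every TfamAKO library was below every WT library, with TfamAKO 1 nearest to WT. Aldoa, the aldolase found in all cells, was at 2092, 1763, 1870.0, 1946 and 2021 CPM across WT, against 1944, 1823, 1864, 1741 and 1572 CPM across TfamAKO, with overlapping groups (edgeR adjusted p = 0.211). Astrocyte markers were split: 4 of 10 rose and 4 fell, and their sum was 3518 to 4303 CPM in WT and 4026 to 6458 CPM in TfamAKO. Their part in the fall of Aldoc was not tested.

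The other 6 genes that fell in this stretch did so by 11.3% to 16.9% of their WT mean. Eno1, the broadly used enolase, went from 837 ± 40.05 CPM to 696 ± 37.3 CPM (-0.27 ± 0.06, edgeR adjusted p = 0.00329). Pkm, pyruvate kinase, went from 1469.9 ± 62.6 CPM to 1251 ± 80.4 CPM (-0.23 ± 0.06, edgeR adjusted p = 0.00907), and its spliced forms M1 and M2 are summed in a table by gene. Eno2, the enolase used as a neuronal marker, went from 871 ± 37.96 CPM to 754 ± 39.8 CPM (-0.21 ± 0.06, edgeR adjusted p = 0.0115). The smaller falls were those of Tpi1 (-0.20), Gapdh (-0.18) and Pgam1 (-0.17), which are triose phosphate isomerase, the dehydrogenase that makes NADH and phosphoglycerate mutase. Neuron markers, 6 of 10 of them called lower, summed to 11079 to 12114 CPM in WT and to 8613 to 10236 CPM in TfamAKO, without overlap, and their part in these falls was not tested.

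Pgam1 and Gapdh were the least stable of these calls. Pgam1 lost its call in 12 of 18 alternatives, when any 1 library except TfamAKO 1 was left out (log2 fold change -0.19 to -0.14). Gapdh lost its call without WT 1 (-0.17). Without WT 3, 4 and 5 none of the 6 was called, with log2 fold changes of -0.20 (Eno1) to -0.14 (Tpi1), and all 9 genes of the group were still negative there as in every other alternative. TfamAKO 5 was the lowest of the 10 libraries for 15 of the 38 genes, and without it Aldoa went to -0.072 and Pgk1 to -0.075. Gapdh, Aldoa, Pgk1, Pgam1, Tpi1, Eno1 and Ldha have many near-identical pseudogene copies, so their absolute levels are uncertain.

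**Figure D3:**
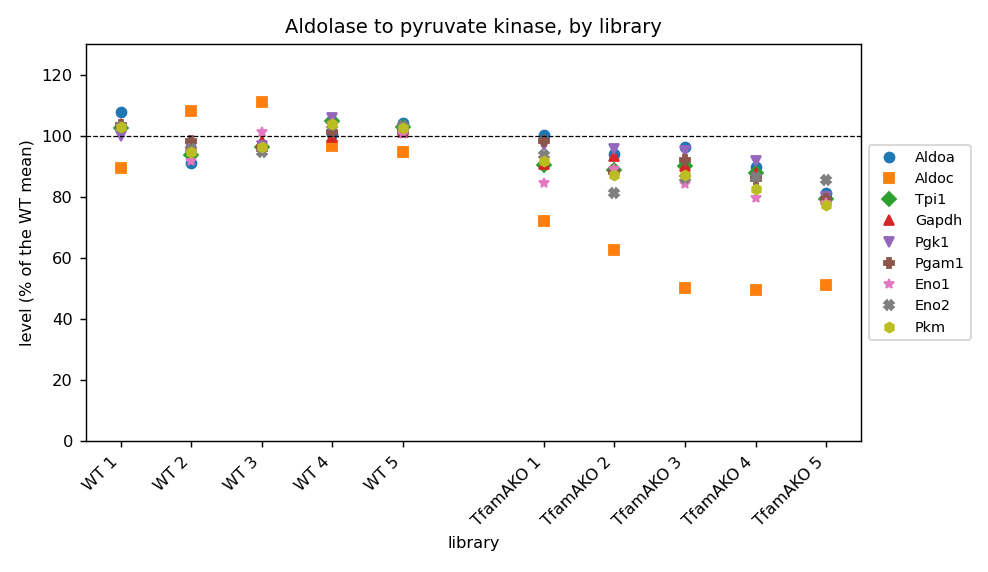
Level of each of the 9 genes from aldolase to pyruvate kinase in each of the 10 libraries, relative to the gene's WT mean. Aldoc stands lowest in every TfamAKO library, and 7 of the other 8 genes are lowest in TfamAKO 5, Eno2 being the exception.

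Lactate dehydrogenase converts pyruvate to lactate and back, and monocarboxylate transporters (MCTs) carry lactate across membranes. Of the 5 genes, Slc16a1 rose and Ldha fell. Slc16a1 encodes MCT1, the lactate carrier of glia and blood vessels, and was at 37.4, 44.9, 36.6, 49.9 and 48.2 CPM across WT, against 92.3, 93.7, 101, 94.8 and 77.2 CPM across TfamAKO. Every TfamAKO library was above every WT library (2.11-fold, log2 fold change 1.08 ± 0.10, edgeR adjusted p = 1.35e-05). The endothelial marker sums given beside Slc2a1 were higher in TfamAKO here too, and their part in the rise of Slc16a1 was not tested. Slc16a7, the neuronal carrier MCT2, was at 29.8, 22.5, 22.9, 20.4 and 25.3 CPM across WT, against 30.3, 17.4, 16.6, 17.3 and 19.4 CPM across TfamAKO. TfamAKO 1 was the highest of the 10 libraries and the other 4 were below every WT library. Slc16a7 was not called (-0.26 ± 0.17, edgeR adjusted p = 0.241) but fell without TfamAKO 1 (-0.45, edgeR adjusted p = 0.00678). In the deposited normalized values its sign was the opposite (0.066).

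Ldha, the subunit that favours lactate formation, went from 229 ± 7.21 CPM to 201 ± 9.45 CPM (-0.19 ± 0.05, edgeR adjusted p = 0.0124), with no overlap between groups. Ldhb, the subunit of oxidative cells, was at 351 ± 22.8 CPM and 323 ± 26.3 CPM and was not called (-0.12 ± 0.07, edgeR adjusted p = 0.187). Neither subunit rose. Slc16a3, the carrier MCT4 known for lactate export from astrocytes, was near the lower end of the measured genes, at 3.37 ± 0.734 CPM and 3.14 ± 1.01 CPM (-0.11 ± 0.24, edgeR adjusted p = 0.757), and its sign turned when WT 2 (0.047) or TfamAKO 4 (0.046) was left out.

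Pyruvate crosses the inner mitochondrial membrane through a carrier made of MPC1 and MPC2 and is oxidised by the pyruvate dehydrogenase complex, which the PDK kinases switch off. Of the 9 genes, Pdk4 and Mpc1 rose, Mpc2 and Pdhb fell and 5 were not called. Pdk4, the kinase known to be induced by fasting and fatty acids, was at 11.8, 11.4, 19.2, 17.03 and 17.3 CPM across WT, against 16.3, 31.8, 37.1, 38.6 and 37.9 CPM across TfamAKO (2.11-fold, log2 fold change 1.08 ± 0.22, edgeR adjusted p = 0.00303). TfamAKO 1 lay within the WT range and the other 4 TfamAKO libraries were above every WT library; within WT, libraries 1 and 2 were lower than the 3 with choroid plexus RNA, and against WT 1 and 2 alone the log2 fold change was 1.51. The other kinases were not called: Pdk1 (-0.13), Pdk2 (0.05) and Pdk3 (-0.03). Pdk1 passed as lower without TfamAKO 1 (-0.18), and the sign of Pdk3 turned without TfamAKO 5 (0.052).

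The 2 subunits of the pyruvate carrier went in opposite directions. Mpc1 rose from 73.6 ± 2.62 CPM to 86.3 ± 6.03 CPM (0.23 ± 0.06, edgeR adjusted p = 0.00912) and Mpc2 fell from 61.9 ± 4.91 CPM to 50.4 ± 2.55 CPM (-0.30 ± 0.07, edgeR adjusted p = 0.0044), each with no overlap between groups. In the E1 enzyme of pyruvate dehydrogenase, the beta subunit Pdhb fell from 109 ± 3.93 CPM to 90.3 ± 11.1 CPM (-0.27 ± 0.08, edgeR adjusted p = 0.0154). The alpha subunit Pdha1 was at 240.5 ± 5.73 CPM and 261 ± 16.4 CPM and was not called (0.12 ± 0.05, edgeR adjusted p = 0.107), although it passed as higher without TfamAKO 5 (0.16, edgeR adjusted p = 0.0169). Dlat, the E2 enzyme of the complex, had a log2 fold change of -0.10 ± 0.06 (edgeR adjusted p = 0.233).

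Glycogen is built by glycogen synthase and the branching enzyme and broken down by phosphorylase. Of these 4 genes Gys1 rose and Pygm fell. Gys1, the synthase of brain and muscle, was at 17.3, 20.2, 25.6, 22.3 and 22.3 CPM across WT, against 37.3, 37.3, 32.97, 32.5 and 33.6 CPM across TfamAKO. Every TfamAKO library was above every WT library (1.61-fold, log2 fold change 0.69 ± 0.10, edgeR adjusted p = 0.000257). Pygm, the muscle-type phosphorylase, which in brain is made chiefly by astrocytes, was at 33.3, 35.3, 45.2, 39.9 and 43.4 CPM across WT, against 24.1, 20.7, 16.7, 15.1 and 19.98 CPM across TfamAKO. In every TfamAKO library it was below every WT library (0.49-fold, log2 fold change -1.03 ± 0.13, edgeR adjusted p = 0.000108). Against WT 1 and 2 alone the log2 fold change of Pygm was smaller, at -0.80 (edgeR adjusted p = 0.015), and that of Gys1 was larger, at 0.91. Pygb, the brain-type phosphorylase, was at 261, 275, 325, 320.0 and 295 CPM across WT, against 281, 286, 258, 259 and 190.1 CPM across TfamAKO; the groups overlapped and it was not called (-0.21 ± 0.11, edgeR adjusted p = 0.134), and without TfamAKO 5 its log2 fold change was -0.12. Gbe1, the branching enzyme, was at 10.2 ± 1.94 CPM and 11.9 ± 1.32 CPM (0.22 ± 0.14, edgeR adjusted p = 0.237), and was at 0.12 without WT 1.

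Isoform pairs were compared within each library as the log2 ratio of their counts, with the isoform known from astrocytes, glia or induced expression over the isoform known from neurons or constitutive expression. That assignment is textbook knowledge and was not measured in this bulk tissue. Of 10 ratios, 7 differed between groups, and the groups did not overlap for 4 (exact permutation test, two-sided, over 252 assignments of the libraries, Benjamini-Hochberg over the 10 ratios). The smallest p this design allows is 0.00794. In each of those 4, a gene called by edgeR stands over one that was not called. The share of such differences among other gene pairs was not computed. Among all genes tested, 20.8% were called higher and 16.6% lower. The shift of the 7 was not in 1 direction. The isoform named first gained on its partner for the glucose carriers, the hexokinases, the lactate carrier Slc16a1 and Pfkp. The first isoform lost ground for the aldolases, the phosphorylases and Pfkl.

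Among the 4 ratios with no overlap, Slc16a1 over Slc16a7 moved furthest. Its log2 ratio was 0.33, 0.995, 0.68, 1.29 and 0.93 in WT 1 to 5 and 1.61, 2.43, 2.61, 2.45 and 1.99 in TfamAKO 1 to 5, a difference of 1.37 ± 0.25 (exact permutation test, adjusted p = 0.0198). The balance of counts had thus moved toward MCT1 in every TfamAKO library. The log2 ratio of Hk2 to Hk1 was -5.98, -5.94, -6.03, -6.19 and -6.20 in WT and -5.13, -5.46, -5.07, -5.41 and -4.95 in TfamAKO, a difference of 0.87 ± 0.11 with the same adjusted p. In the deposited normalized values neither passed: the difference was 0.54 for Hk2 over Hk1 (exact permutation test, adjusted p = 0.159) and 1.03 for Slc16a1 over Slc16a7 (adjusted p = 0.0529, exact permutation test).

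Both other ratios without overlap moved away from the astrocyte isoform. The log2 ratio of Aldoc to Aldoa was -1.23, -0.71, -0.75, -1.01 and -1.10 in WT and -1.44, -1.54, -1.89, -1.81 and -1.62 in TfamAKO, a difference of -0.70 ± 0.13 (exact permutation test, adjusted p = 0.0198). That of Pygm to Pygb was -2.97, -2.96, -2.85, -3.003 and -2.76 in WT and -3.54, -3.79, -3.95, -4.10 and -3.25 in TfamAKO, a difference of -0.82 ± 0.16 with the same adjusted p. On counts these 4 ratios passed whichever single library was left out, and no other ratio did; in the normalized values Aldoc over Aldoa and Pygm over Pygb passed.

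For 3 ratios the groups differed but overlapped. Slc2a1 over Slc2a3 differed by 1.03 ± 0.28 (exact permutation test, adjusted p = 0.034), with TfamAKO 1 at 0.36 within the WT values of -0.44 to 0.59 and the other 4 TfamAKO libraries at 1.19 or more. Pfkl over Pfkm differed by -0.35 ± 0.12 (exact permutation test, adjusted p = 0.034) and Pfkp over Pfkm by 0.14 ± 0.04 (adjusted p = 0.0317). These 3 calls were fragile. Slc2a1 over Slc2a3 lost its call without WT 1 (0.89), WT 4 (1.05), WT 5 (0.996), TfamAKO 4 (0.93) or TfamAKO 5 (0.997). Pfkl over Pfkm lost it without WT 1 (-0.32), WT 3 (-0.34), WT 4 (-0.36), WT 5 (-0.35) or TfamAKO 5 (-0.27), and Pfkp over Pfkm without WT 3 (0.14), WT 4 (0.11), WT 5 (0.13), TfamAKO 4 (0.13) or TfamAKO 5 (0.11). Adjusted p-values in these refits were 0.0529 to 0.0907, and the sizes of the differences stayed close to those in all 10 libraries.

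The remaining 3 ratios did not pass. Eno1 over Eno2 differed by -0.06 ± 0.06 (exact permutation test, adjusted p = 0.456), although without TfamAKO 2 the difference was -0.11 (exact permutation test, adjusted p = 0.0496). Ldha over Ldhb differed by -0.07 ± 0.10 (adjusted p = 0.582, exact permutation test). It was -0.0077 without TfamAKO 5, -0.019 without WT 1, -0.11 without WT 3 and -0.13 without TfamAKO 1. Slc16a3 over Slc16a7 differed by 0.14 ± 0.37 (exact permutation test, adjusted p = 0.683) and ran from 0.00090 without TfamAKO 2 to 0.38 without TfamAKO 1. The standard error of the last allows differences of either sign, and a ratio that missed the threshold is not shown to be equal between groups.

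**Figure D4:**
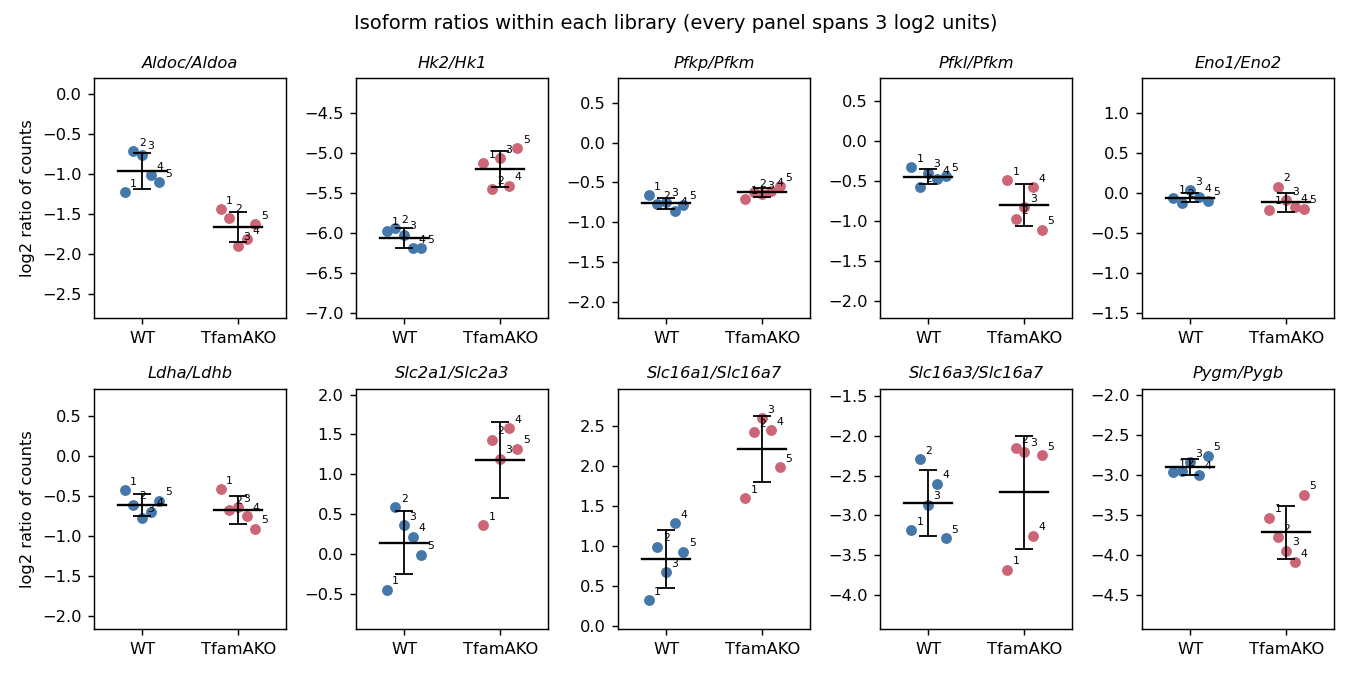
Log2 ratio of the counts of 2 isoforms in each library, 1 panel a pair, with a point for each of the 5 WT and 5 TfamAKO libraries and a bar at the group mean. The groups are apart for Slc16a1/Slc16a7 and Hk2/Hk1, higher in TfamAKO, and for Aldoc/Aldoa and Pygm/Pygb, lower in TfamAKO.

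To set genes side by side, CPM was divided by the length of the longest annotated transcript in kilobases. On that scale Aldoa was the highest in WT, at 1251 ± 82.9 CPM per kilobase, followed by Pkm (604 ± 25.8), Gapdh (542 ± 14.2), Eno1 (413 ± 19.8), Aldoc (358 ± 33.1) and Tpi1 (348 ± 16.5; SD, n = 5 each). Aldoc and Tpi1 were within each other's spread. In TfamAKO, Aldoc stood at 205 ± 35.5 CPM per kilobase, below Tpi1 at 304 ± 15.7. With the median transcript length Aldoc was instead above Tpi1 in both groups. It stood there at 1337 ± 123 against 750 ± 35.6 in WT and at 763 ± 132 against 654 ± 33.7 in TfamAKO. No order is therefore drawn between Aldoc and Tpi1. At the other end, Slc16a3 was at 0.778 ± 0.169 and Hk2 at 1.31 ± 0.121 CPM per kilobase in WT. These levels depend on the length used: with the median transcript length Gapdh came first, and Pfkm, which was above both Pfkl and Pfkp with the longest transcript, came below both. The same change of length turned the WT order of Slc2a1 and Slc2a3 and of Slc16a1 and Slc16a7, so no order is drawn for these pairs.

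Further genes of the same pathways were taken from lists by function. Of 91 listed genes 84 were tested; 28 rose and 15 fell, with a median log2 fold change of 0.06, against 20.8% higher, 16.6% lower and a median of -0.02 for all genes tested. Several of the lists lie near that background, and nothing is read from their counts alone. The pentose phosphate pathway, which diverts glucose 6-phosphate to make NADPH, had 4 of 8 genes higher and 0 lower. G6pdx, its entry enzyme, went from 27.4 ± 1.62 CPM to 48.03 ± 3.897 CPM (0.81 ± 0.07, edgeR adjusted p = 9.27e-06). Its partners Pgls (0.37) and H6pd (0.62) also rose, as did Taldo1 (0.21), whose call was lost without WT 5 (0.18). Among other genes of glycolysis and gluconeogenesis 6 of 17 rose and 2 fell. Pck2, the mitochondrial enzyme that makes phosphoenolpyruvate, went from 46.3 ± 2.13 CPM to 91.02 ± 12.9 CPM (0.97 ± 0.09, edgeR adjusted p = 1.34e-05), and Pcx, the pyruvate carboxylase known in brain from astrocytes, from 90.3 ± 6.5 CPM to 141 ± 24.4 CPM (0.64 ± 0.11, edgeR adjusted p = 0.000917). Pgm1 (0.89) and the muscle-type enolase Eno3 (0.60) rose as well.

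Among other glycogen genes 5 of 21 rose and 4 fell. Pygl, the liver-type phosphorylase, named here after its values were seen because it moved opposite to Pygm, rose from 4.99 ± 1.259 CPM to 8.95 ± 2.76 CPM (0.84 ± 0.23, edgeR adjusted p = 0.0138), with overlapping groups. Phkb (0.64) and Phka2 (0.72), subunits of the kinase that activates phosphorylase, rose. Other subunits of this kinase did not: Phkg1 (-1.32) and Phka1 (-0.28) were called lower, and Phkg2 (-0.01) was not called. Ugp2 (0.53), which makes the UDP-glucose used for glycogen, rose as well. Ppp1r3g, a glycogen-targeting subunit of protein phosphatase 1, fell from 10.5 ± 2.33 CPM to 3.42 ± 1.18 CPM (-1.61 ± 0.23, edgeR adjusted p = 0.000277). Among other pyruvate and lactate genes 3 of 12 rose and 3 fell. Ldhd, the dehydrogenase of D-lactate, went from 12.6 ± 1.38 CPM to 25.04 ± 6.599 CPM (0.99 ± 0.18, edgeR adjusted p = 0.00111), and Pdpr (0.39), a regulator of pyruvate dehydrogenase phosphatase, rose, a call lost without WT 3, 4 and 5 (0.48) or without TfamAKO 4 and 5 (0.33). Bsg (-0.56) and Emb (-0.96), the chaperones that take monocarboxylate transporters to the membrane, fell, but without WT 3, 4 and 5 neither was called (-0.32 and -0.32).

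Of 8 other sugar transporters 3 rose and 2 fell. Slc2a4, the insulin-responsive carrier GLUT4, went from 1.12 ± 0.608 CPM to 4.58 ± 1.82 CPM (2.02 ± 0.37, edgeR adjusted p = 0.00144), and Slc2a10 (1.42) rose as well. Slc2a8 (0.40) rose, but lost its call without WT 3, 4 and 5 (0.36) or without TfamAKO 4 and 5 (0.35). Slc2a12 was called lower (-2.29), but its WT values were 1.97, 3.86, 33.9, 26.3 and 18.7 CPM, high only in WT 3, 4 and 5, the libraries with choroid plexus RNA, and without them its log2 fold change was 0.26. In the list of hypoxia-inducible factors and targets outside the 38 genes, 7 of 18 rose and 4 fell, with a median of 0.28. Adm, which encodes adrenomedullin, went from 1.52 ± 0.251 CPM to 7.31 ± 3.55 CPM (2.27 ± 0.34, edgeR adjusted p = 0.000338). The factor genes Epas1 (0.82 ± 0.15), known from endothelium and astrocytes, and Hif1a (0.32 ± 0.06) rose, while Ankrd37, a known target, fell (-1.06 ± 0.18, edgeR adjusted p = 0.000814).

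**Figure D5:**
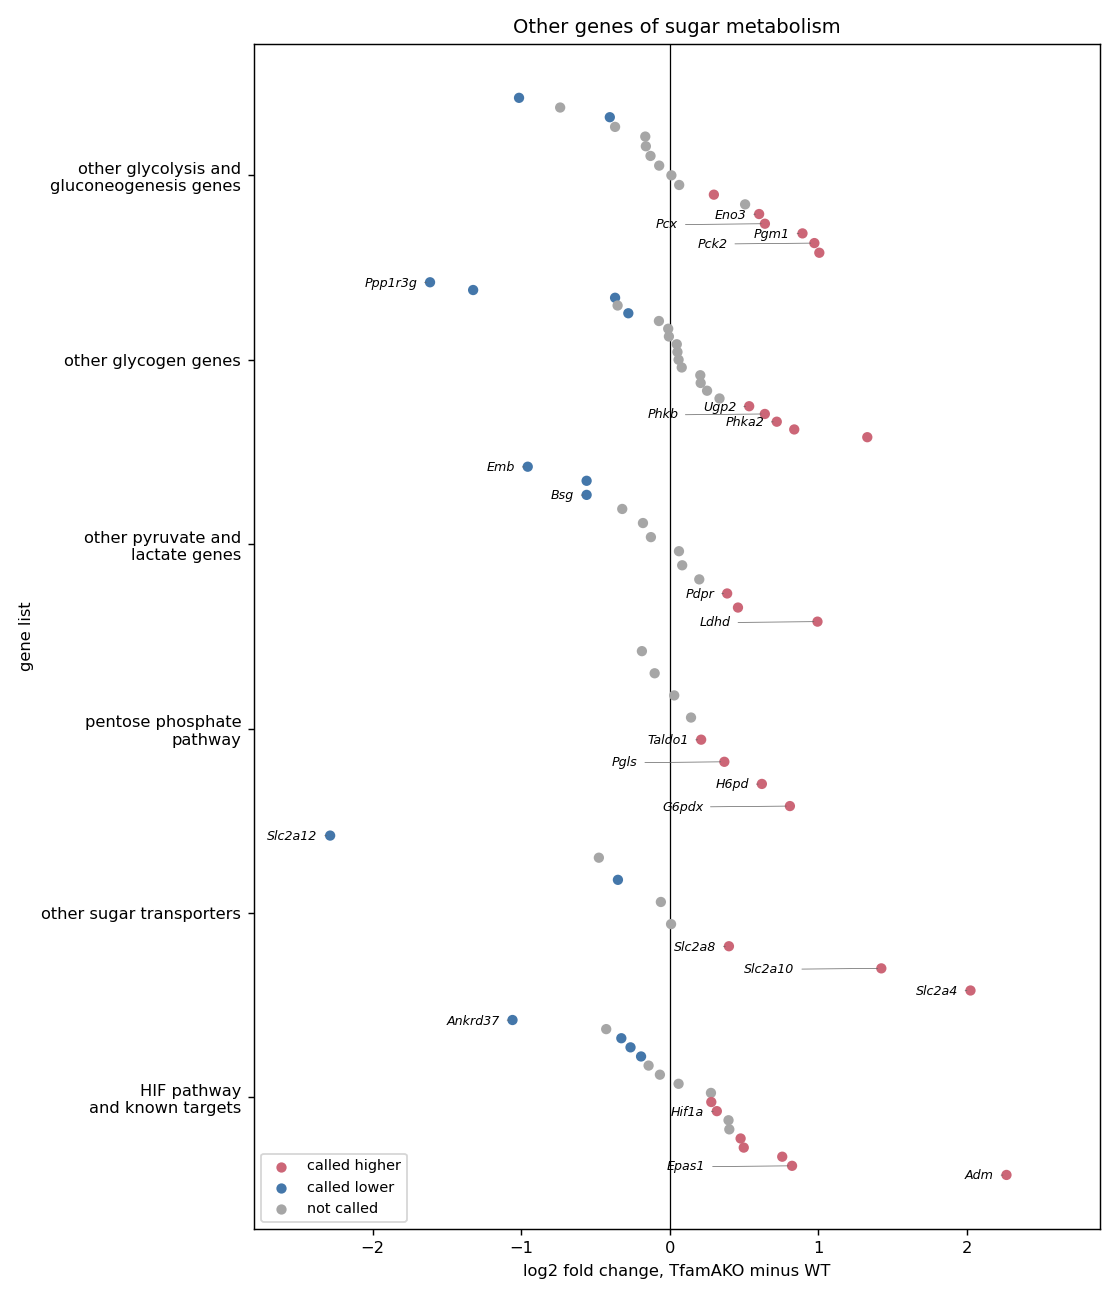
Log2 fold change of each tested gene of the 6 further lists, 1 point a gene, coloured by the edgeR call, with up to 4 genes of the smallest p named per list. No pentose phosphate gene was called lower, while each of the other 5 lists holds calls in both directions.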

How the data were processed

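Hippocampal RNA of 5 WT and 5 TfamAKO mice had been made into stranded mRNA libraries, per the labels' protocols. The authors deposited a table of estimated counts per gene, made with Salmon and DESeq2 1.26.0 per the submitters' processing notes; its values were whole and none was changed by rounding. A second deposited table held normalized signal values, used only in alternatives. For the genome build the labels used here give nothing.

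Counts were tested with edgeR 4.0.16 (R 4.3.3): filterByExpr with a minimum count of 10 (16180 genes kept, 3976 removed), TMM scaling, quasi-likelihood F test, Benjamini-Hochberg over all genes tested, threshold 0.05. Fold changes are log2 with standard error. Isoform ratios used a pseudocount of 0.5 counts and an exact permutation test. Alternatives used DESeq2 1.42.0, limma 3.58.1 (pseudocount 1), other scalings, no filter, a replicate block and libraries left out. On simulated counts the edgeR step recovered 10% of 1.25-fold, 58% of 1.5-fold, 92% of 2-fold and 98% of 4-fold changes (50 genes each), so small changes can be missed. The simulation gave 133 calls and the data gave 6048. The adjusted threshold is stricter where fewer genes change, so these shares need not hold for the data. Nothing in the labels says that the samples came from separate litters or days. The p-values weigh the difference between groups against the variation among these samples, and litter or day was not modelled. Transcript lengths came from GENCODE M21, and promoter windows from RefSeq (GRCm38.p6).

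Values in every library are given for members called with an absolute log2 fold change of at least 0.5 and for both genes of each ratio that passed. Of each further list, up to 4 genes with the smallest p are named. Pygl, Phkg1, Phka1 and Phkg2 are named in addition. The members and lists were chosen with earlier results of these data known.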

Additional observations from a re-analysis of the deposited data

Results flagged for a closer look

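In 6 of 96 groups of 5 libraries, 1 library stood apart from the others of its group by Dixon's test at the 95% level; chance flags about 1 in 20. Pfkfb3 was at 30.4 CPM in WT 1, below the 36.0 to 37.3 CPM of the other WT libraries. Tpi1 was at 444.5 CPM in TfamAKO 5, below 492 to 506 CPM. Eno1 was at 768 CPM in WT 2, below 842 to 869 CPM. Slc16a7 was at 30.3 CPM in TfamAKO 1, above 16.6 to 19.4 CPM. Pdk3 was at 22.9 CPM in WT 1, below 25.5 to 26.2 CPM. Pygb was at 190.1 CPM in TfamAKO 5, below 258 to 286 CPM. TfamAKO 1 was the TfamAKO library nearest the WT mean for 11 of the 20 called genes and within the WT range for 4 of them: Slc2a1, Pdk4, Pgam1 and Pdhb.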

How the results depend on the processing

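The 9 higher and 11 lower calls among the 38 genes stayed within 1.5 times under both other scalings, without a filter, with DESeq2, with limma on the normalized values and without any single library (8 to 11 higher, 9 to 14 lower). Lower calls numbered 6 without TfamAKO 4 and 5, and 2 without WT 3, 4 and 5, where fewer samples are fitted; lower calls among the further pathway genes numbered 4 there, against 15. Of the 18 uncalled members, 6 were called in at least 1 alternative. Same-numbered libraries did not deviate together (r = 0.07, 0.02, 0.03, 0.00 and -0.14). The labels do not say that the numbers pair mice, and correlations this low cannot exclude a pairing. With a replicate block 9 members were called higher and 11 lower (9 of each count shared with the fit without it); Gapdh (-0.18) and Pgam1 (-0.18) were not called, and Pfkl (-0.30) and Slc16a7 (-0.28) were. Sign flips over the 5 numbered pairs, an exact block test that cannot go below p = 0.0625, called 0 of 10 ratios, with differences identical to the unpaired ones (-0.70, 0.87, 0.14, -0.35, 1.03, 1.37 and -0.82 for Aldoc/Aldoa, Hk2/Hk1, Pfkp/Pfkm, Pfkl/Pfkm, Slc2a1/Slc2a3, Slc16a1/Slc16a7 and Pygm/Pygb). Those ratios were -0.70, 0.76, 0.091, -0.34, 1.11, 1.55 and -0.76 without WT 3, 4 and 5, where the smallest exact p is 0.0476 and 0 passed adjustment. In normalized values Hk2/Hk1 (0.54), Pfkl/Pfkm (-0.34), Slc2a1/Slc2a3 (0.97) and Slc16a1/Slc16a7 (1.03) did not pass; the cause was not tested. Without TfamAKO 4 and 5, Pfkp/Pfkm (0.10), Pfkl/Pfkm (-0.32) and Slc2a1/Slc2a3 (0.85) did not pass and Ldha/Ldhb was 0.036. Without single libraries Pfkp/Pfkm ran from 0.11 to 0.16, Pfkl/Pfkm from -0.43 to -0.27, Slc2a1/Slc2a3 from 0.89 to 1.24 and Eno1/Eno2 from -0.11 to -0.035. Signs of uncalled genes turned for Slc16a3 (normalized values 0.14, without WT 2 0.047, without TfamAKO 4 0.046; -0.23 to 0.047 over single libraries left out), Slc16a7 (normalized values 0.066), Gbe1 (normalized values -0.15), Slc2a3 (without WT 3, 4 and 5, 0.043) and Pdk3 (without TfamAKO 5 0.052, with -0.069 to 0.052 over single libraries left out, without TfamAKO 4 and 5 0.11, without WT 3, 4 and 5 0.043); Slc2a12, a called gene, was at 0.26 without WT 3, 4 and 5. Log2 per-length ratios in WT went with the median transcript length from -1.81 to -0.71 (Aldoc/Aldoa), -6.44 to -7.42 (Hk2/Hk1), -2.35 to 0.87 (Pfkp/Pfkm), -0.82 to 1.59 (Pfkl/Pfkm), 0.41 to 0.29 (Eno1/Eno2), -1.09 to -0.46 (Ldha/Ldhb), 1.09 to -0.14 (Slc2a1/Slc2a3), 2.16 to -0.081 (Slc16a1/Slc16a7) and -2.47 to -3.94 (Pygm/Pygb).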

Other observations

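The deposited normalized values are not the counts divided by 1 factor per library. Over 14649 genes with at least 10 counts in every library, the ratio of the 2 tables, relative to its median in each library, shifted between the groups by a median of 0.0269 on the log2 scale, and 95% of genes shifted by at most 0.220. Of the 38 genes 4 shifted further: Slc16a7 (0.41), Gbe1 (-0.40), Hk2 (-0.37) and Slc16a3 (0.30). For Hk2 the relative factor was 1.43 and 1.70 in WT 1 and 2 and 0.890 to 0.903 in the other 8 libraries, so that its log2 fold change was 1.03 in counts and 0.69 in normalized values (limma adjusted p = 0.0273). The direction of Hk2 was the same in both tables.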
